A study of Mus musculus with 9 samples.

Results

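Keratin transcripts were examined in the mouse colon carcinoma line MC38 and in its liver metastatic derivatives. The keratins were those named Krt76, Krt8, Krt18, Krt7, Krt80, Krt5, Krt14, Krt19, Krt20 and Krt10, matched by gene symbol, and 9 of these 10 were found among 16399 listed genes. The level of Krt5 was not analysed here. The members were chosen by their TPM values in earlier results of these data, and Krt76 was selected on its level in both derivatives, which was far below that of the parental line. Its values against the parental line are therefore given as a description. MC38-P is the parental line, which carried a GFP and luciferase reporter. MC38-LM3a and MC38-LM3b are independently derived lines that had been recovered from liver metastases after 3 rounds of intrasplenic injection into C57BL/6 mice, and they carried the same reporter. Each line was sequenced in 3 replicates, which the study calls biological, so 9 libraries of cultured cells were available. Each derivative is 1 selected cell population, so a difference between lines is a difference between these populations. Nothing in the labels says that the replicates came from separate cultures, and p-values then measure only the spread between these libraries.

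Keratins are the intermediate filament proteins of epithelial cells. A filament is built from heterodimers of a type I and a type II keratin, and a keratin without a partner is usually degraded. In the mouse, type II genes lie in a cluster on chromosome 15, and type I genes lie on chromosome 11, with the exception of Krt18, a type I gene at the edge of the chromosome 15 cluster. Krt8 and Krt18 form the basic pair of simple epithelia such as that of the colon, to which Krt19 and Krt20 are added in the gut. Krt5 and Krt14 pair in the basal layer of stratified epithelia, Krt10 marks the layers above it, Krt7 is common in ducts, Krt80 is a widely expressed type II keratin, and Krt76 is known from the palate and other stratified epithelia of the mouth.

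Levels are given as TPM, an abundance that accounts for transcript length, so levels of different genes can be compared. TPM has the same total in all libraries, so each value is a share of that total and depends on the other genes too. At least 1 TPM was reached by 10875 to 11218 genes, depending on the library, and the correlation of library pairs over genes, which are not independent replicates, was 0.969 to 0.997. The read depth is unknown. MC38-P replicate 3 and MC38-LM3a replicate 3 stood apart from the other libraries of their lines along transcript length: over 11096 genes, the difference from those libraries had a Spearman correlation of -0.62 and 0.644 with length, respectively. Over all tested genes the median log2 fold change from MC38-P was 0.00 for MC38-LM3a and 0.21 for MC38-LM3b.

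Krt8 and Krt18 were by far the most abundant keratins in every library. Krt8 (NCBI Gene 16691), the type II keratin of the simple epithelial pair, had 1047.28, 1128.85 and 1205.60 TPM in the MC38-P replicates, 822.75, 851.15 and 743.78 TPM in the MC38-LM3a replicates and 747.21, 780.79 and 764.33 TPM in the MC38-LM3b replicates. Every derivative library lay below every parental one, and the derivatives overlapped. Krt18 (NCBI Gene 16668), its type I partner, had 841.69, 898.63 and 981.48 TPM for MC38-P, 796.46, 798.82 and 707.59 TPM for MC38-LM3a and 734.56, 736.97 and 707.11 TPM for MC38-LM3b. The parental libraries were again the highest, but the gap to MC38-LM3a was small. The pair took 92.3% ± 0.221 (SD, n = 3) of the summed TPM of all 29 listed keratins for MC38-P, 90.3% ± 0.0683 for MC38-LM3a and 92% ± 0.191 for MC38-LM3b.

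Krt76 (NCBI Gene 77055), a type II keratin, had 28.29, 26.35 and 31.08 TPM in the MC38-P replicates. The level was 2.05, 1.93 and 1.54 TPM in MC38-LM3a and 0.92, 1.13 and 2.09 TPM in MC38-LM3b. The parental libraries stood apart from all the others, and the ranges of the derivatives overlapped. The mean of MC38-LM3a was 6.44% of the parental mean and that of MC38-LM3b 4.83%, so a residual level was measured in each derivative library. On the log2(TPM + 1) scale the difference from MC38-P was -3.38 (standard error 0.172) in MC38-LM3a and -3.66 (standard error 0.172) in MC38-LM3b. These values chose the gene and were not tested. With a pseudocount of 0.1 in place of 1 they were -3.89 and -4.35, because the pseudocount shrinks differences of low values. Krt76 made up 2.45% ± 0.175 (SD, n = 3) of the type II keratin TPM of MC38-P and 0.225% ± 0.0212 and 0.178% ± 0.0799 in MC38-LM3a and MC38-LM3b.

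Krt80 (NCBI Gene 74127) had 13.72, 14.37 and 11.33 TPM for MC38-P, 7.25, 6.77 and 9.94 TPM for MC38-LM3a and 8.49, 8.10 and 9.07 TPM for MC38-LM3b. Both derivatives lay below MC38-P without overlap, with MC38-LM3a replicate 3 nearest to it. Krt7 (NCBI Gene 110310), the ductal type II keratin, was between 0.00 and 0.20 TPM in all libraries and was not tested.

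The keratins of chromosome 11 were led by Krt19 (NCBI Gene 16669), a short type I keratin that can replace Krt18 as a partner of Krt8. Its level was 105.08, 114.40 and 121.84 TPM for MC38-P, 154.48, 156.89 and 135.74 TPM for MC38-LM3a and 106.54, 106.98 and 109.25 TPM for MC38-LM3b. MC38-LM3a was the highest group without overlap, and MC38-LM3b lay within the range of MC38-P. Krt10 (NCBI Gene 16661), the epidermal type I keratin, had 2.46, 2.40 and 2.20 TPM for MC38-P, 1.44, 1.52 and 2.16 TPM for MC38-LM3a and 3.01, 2.21 and 2.82 TPM for MC38-LM3b. All MC38-LM3a libraries were below all others, while MC38-LM3b and MC38-P overlapped.

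Krt20 (NCBI Gene 66809), which marks differentiated cells of the gut surface, had 0.54, 0.75 and 0.79 TPM for MC38-P, 1.21, 1.83 and 1.41 TPM for MC38-LM3a and 0.69, 1.64 and 1.13 TPM for MC38-LM3b. MC38-LM3a lay above MC38-P, and MC38-LM3b overlapped both. Krt20 reached 1 TPM in derivative libraries only, so it passed the filter through the lines in which it was higher. Krt14 (NCBI Gene 16664), the basal type I keratin, was between 0.12 and 0.44 TPM in all libraries and was not tested.

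**Figure D1:**
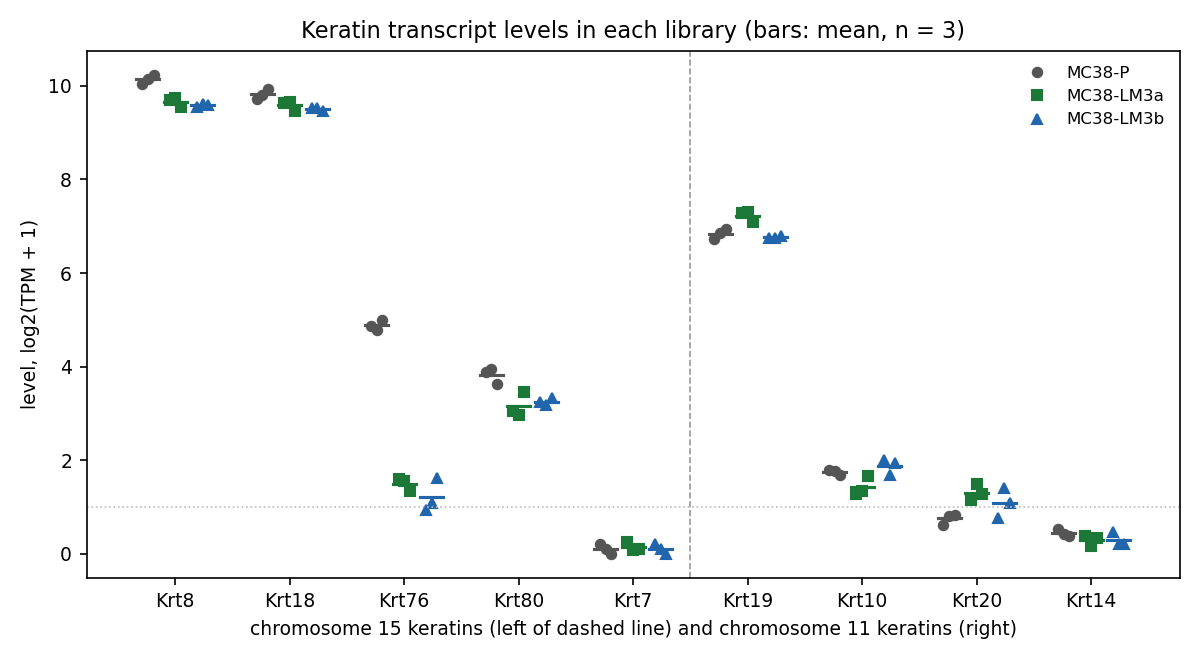
Level of the 9 keratins in each library on the log2(TPM + 1) scale (vertical axis), by gene (horizontal axis), with one symbol per library and a bar at the mean of each line (n = 3), and a dotted line at 1 TPM. Krt76 separates the parental libraries (26.35 to 31.08 TPM) from those of both derivatives (0.92 to 2.09 TPM), while Krt7 and Krt14 stay below 1 TPM in every library.

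In the order of mean levels in MC38-P, Krt8 (1127 ± 79.2 TPM, SD, n = 3) was followed by Krt18 (907 ± 70.3), Krt19 (114 ± 8.4), Krt76 (28.6 ± 2.38), Krt80 (13.1 ± 1.6), Krt10 (2.35 ± 0.136), Krt20 (0.693 ± 0.134), Krt14 (0.363 ± 0.0709) and Krt7 (0.0767 ± 0.0802). In MC38-P no neighbours in this order overlapped. In MC38-LM3a, Krt76 (1.84 ± 0.267 TPM) had moved below Krt80 (7.99 ± 1.71) to the level of Krt10 (1.71 ± 0.395) and Krt20 (1.48 ± 0.316), and the ranges of the 3 genes overlapped. Krt8 (806 ± 55.6) and Krt18 (768 ± 52.0) overlapped as well. In MC38-LM3b, Krt76 (1.38 ± 0.624 TPM) overlapped Krt20 (1.15 ± 0.475) and stayed below Krt10 (2.68 ± 0.418).

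Promoter windows are shown for Krt76, as the member whose level differed most from that of MC38-P among those tested or described, and for Krt8 and Krt18, as the abundant pair. They run from 250 bases before to 50 bases after the annotated start, 5′ to 3′ on the strand of the gene. They come from RefSeq on GRCm38.p6, which had such windows for 8 of the 10 keratins. Krt5 was among these 8, and Krt19 and Krt80 had no window. Capitals mark the letters TATAAA of a TATA box.
Krt76, chr15:101892871-101893170, minus strand: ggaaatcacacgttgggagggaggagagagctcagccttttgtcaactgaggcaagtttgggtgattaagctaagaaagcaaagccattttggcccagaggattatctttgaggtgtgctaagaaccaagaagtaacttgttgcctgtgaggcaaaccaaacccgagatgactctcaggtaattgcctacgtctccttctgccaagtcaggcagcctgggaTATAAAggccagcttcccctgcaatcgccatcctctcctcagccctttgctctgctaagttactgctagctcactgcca
Krt8, chr15:102004293-102004592, minus strand: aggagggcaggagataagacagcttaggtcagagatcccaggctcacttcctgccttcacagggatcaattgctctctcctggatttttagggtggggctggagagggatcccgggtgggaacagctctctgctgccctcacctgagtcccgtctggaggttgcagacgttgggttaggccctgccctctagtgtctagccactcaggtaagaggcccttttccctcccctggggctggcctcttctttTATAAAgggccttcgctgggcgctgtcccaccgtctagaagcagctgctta
Krt18, chr15:102027966-102028265, plus strand: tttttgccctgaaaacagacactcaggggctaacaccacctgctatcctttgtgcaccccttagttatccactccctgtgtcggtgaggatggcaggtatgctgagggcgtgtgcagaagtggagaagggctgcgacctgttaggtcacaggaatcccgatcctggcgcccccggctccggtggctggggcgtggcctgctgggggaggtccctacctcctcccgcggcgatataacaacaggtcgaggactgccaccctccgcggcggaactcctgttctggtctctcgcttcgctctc
Krt76 holds TATAAA starting 29 bases before the annotated start, and in Krt8 the motif begins 1 base before it. The Krt18 window does not hold these letters on either strand. On either strand, TATAAA was found in 4 of the 8 keratin windows (Krt10, Krt20, Krt76 and Krt8), against 13.6% of all 32851 windows. GGGCGG, the core of a GC box, was found in Krt7 only, against 35.7% of all windows. TGANTCA, the letters of an AP-1 site, and TGTGGT, those of a Runx site, were in none of the 8 and in 7.81% and 16.8% of all windows. Motifs were counted separately, whether or not they overlapped. A match is a description of the letters and was not related to the levels.

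The first comparison asks how keratin transcripts of MC38-LM3a differ from MC38-P. Besides Krt76, 6 members were tested in the limma model, and 5 of them had an adjusted p-value under 0.05, where 28.0% of all tested genes were called. One of the 5 was Krt20, which was tested only because of its level in the derivatives, and without it 4 of 5 were called. The members were chosen with earlier results known. Counts of members called are therefore a description in each comparison, and the p-values carry no allowance for that choice. All 3 members tested on chromosome 15 were called lower, as were 316 of the 464 tested genes of that chromosome. Over all genes, 13.8% were called lower. On the log2 scale, Krt8 changed by -0.48 (standard error 0.0677, limma adjusted p = 4.646e-04), Krt80 by -0.66 (standard error 0.145, limma adjusted p = 0.00621) and Krt18 by -0.24 (standard error 0.0695, limma adjusted p = 0.0256). On chromosome 11, Krt19 rose by 0.39 (standard error 0.076, limma adjusted p = 0.00358), where 14.1% of all genes were called higher. Krt20 differed by 0.55 (standard error 0.17), or by 0.99 with a pseudocount of 0.1, which is a description since the filter favoured this direction. Krt10 was at -0.32 (standard error 0.138) and did not pass (limma adjusted p = 0.114). No member besides Krt76 changed by more than 1 on the log2 scale, the limit of a DEG that 2.89% of the genes met. Leaving out Krt76 and Krt20, whose direction the choice of members and the filter fixed, all 5 other tested members had values in MC38-LM3a that did not overlap those of MC38-P, as did 36.2% of all tested genes.

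Some of these calls were lost under other settings. Krt18 was not called with each library centred on its median (limma adjusted p = 0.215), in the model with the replicate number as a block (0.0739), without a variance trend (0.0648), with the 2 lines alone in the model (0.0788), without MC38-P replicate 2 (0.0695) or without MC38-P replicate 3 (0.0684). Without the libraries numbered 3 of both lines, Krt18 was at -0.12 and still called (0.022). For Krt20, whose direction the filter favoured, the limma adjusted p-values are a description, and no stability of a change is read from them. It was not called with centring on the median (0.0507) or without MC38-P replicate 1 (0.107), MC38-P replicate 2 (0.0795), MC38-LM3a replicate 2 (0.116) or MC38-LM3b replicate 3 (0.0539). Centring on the median left Krt19 just outside the threshold (0.0504). Krt10 was called as lower with offsets for GC content and length (-0.34, limma adjusted p = 0.0251), with quantile normalization (-0.31, 0.0371), with centring on the median (-0.32, 0.0275), without MC38-LM3a replicate 3 (-0.43, 0.0266) and without the libraries numbered 3 of both lines (-0.47, 0.0108), the last chosen after seeing the data. The calls of Krt8 and Krt80 held in every alternative that was run, but their size moved. Without the libraries numbered 3 of both lines, Krt8 was at -0.38, Krt80 at -0.91 and Krt19 at 0.50, each still called. Krt8, Krt18 and Krt19 had their highest MC38-P and lowest MC38-LM3a level in these libraries, and Krt80 and Krt10 the reverse.

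In MC38-LM3b, which was compared with the same MC38-P libraries, the 3 tested members on chromosome 15 were again lower, and no member of chromosome 11 passed. Of the 6 members tested besides Krt76, 3 were called, a share close to the 46.7% of all genes, while 11.2% of all genes were called lower and 35.6% higher. On chromosome 15, 222 of the 464 tested genes were called lower. On the log2 scale, Krt8 changed by -0.56 (standard error 0.0677, limma adjusted p = 1.345e-04), Krt80 by -0.56 (standard error 0.145, limma adjusted p = 0.00998) and Krt18 by -0.32 (standard error 0.0695, limma adjusted p = 0.00424). Relative to the median of all genes, which was 0.21 in this comparison, the values were -0.77 for Krt8, -0.77 for Krt80 and -0.53 for Krt18. Krt19 had -0.08 (standard error 0.076, adjusted p = 0.413), and Krt10 0.13 (0.453). Leaving out 1 library moved Krt19 to -0.03 (without MC38-P replicate 3) or -0.13 (without MC38-P replicate 1) and Krt10 to 0.06 (without MC38-LM3b replicate 1) or 0.22 (without MC38-LM3b replicate 2), with no call. Krt20 was at 0.33 (standard error 0.17), or at 0.60 with a pseudocount of 0.1, at 0.17 without MC38-LM3b replicate 2 and at 0.49 without MC38-LM3b replicate 1. In the last of these its limma adjusted p-value was 0.0456, which is a description, since the filter favoured this direction. The sign of Krt10 turned with centring on the median (-0.09) and with quantile normalization (-0.08). Relative to the median of all genes, Krt19 was at -0.29, Krt10 at -0.08 and Krt20 at 0.12. Without Krt76 and Krt20, 3 of 5 members did not overlap MC38-P, namely Krt8, Krt18 and Krt80, against 66.7% of all tested genes, and 3.93% of the genes were DEGs.

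**Figure D2:**
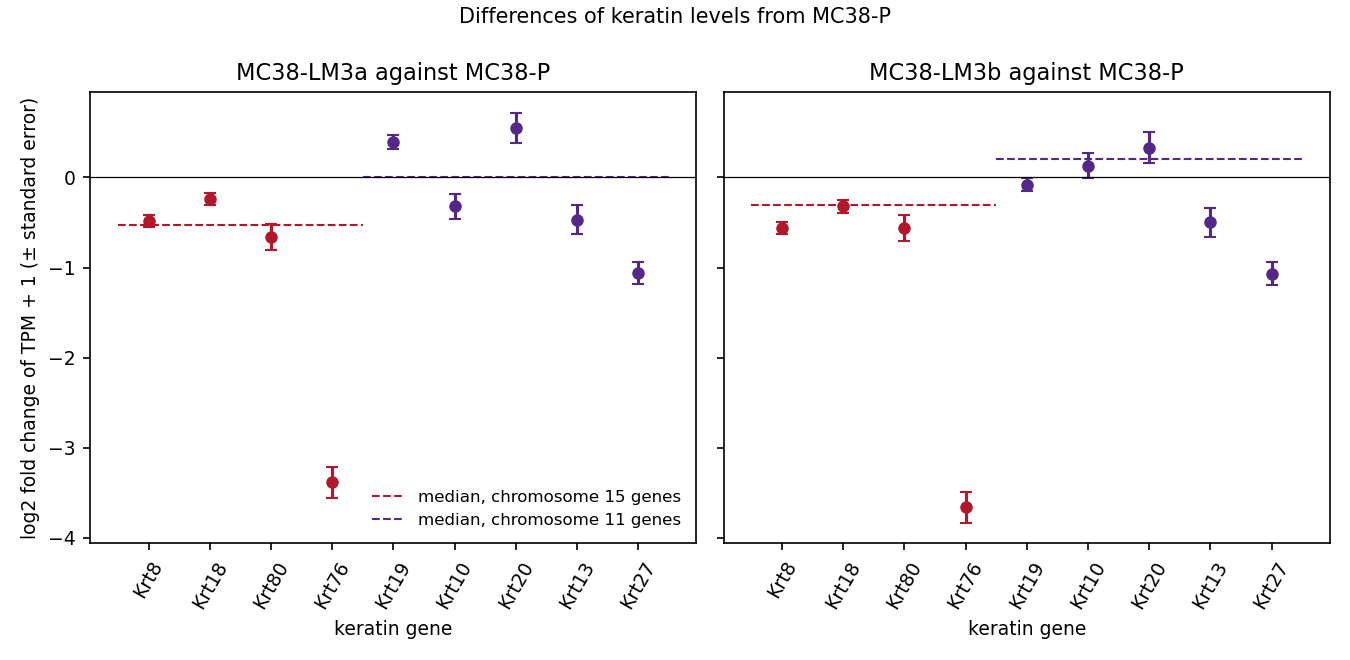
Log2 fold change of TPM + 1 from MC38-P with its standard error (vertical axis) for 9 keratins (horizontal axis) in MC38-LM3a (left) and MC38-LM3b (right); red points lie on chromosome 15 and purple points on chromosome 11, and dashed lines give the median of the tested genes of each chromosome. Krt8, Krt18 and Krt80 lie within 0.29 of the chromosome 15 median in both panels, and Krt76 lies far below it at -3.38 and -3.66.

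The chromosome 15 keratins were then set against the other genes of their chromosome. The 464 tested genes of chromosome 15 had a median log2 fold change from MC38-P of -0.53 for MC38-LM3a and -0.31 for MC38-LM3b, with 316 and 222 called lower and 15 and 30 called higher. The 933 genes of chromosome 11 had medians of 0.00 and 0.20. The log2 fold change minus the chromosome 15 median was 0.05 (MC38-LM3a) and -0.25 (MC38-LM3b) for Krt8. It was -0.13 and -0.25 for Krt80. For Krt18 it was 0.29 and -0.01, and 79.1% of the genes of the chromosome lay below Krt18 in MC38-LM3a. All 3 keratins thus lay among the genes of their chromosome. For Krt76 the difference from the median was -2.85 and -3.35, and no tested gene of chromosome 15 had a lower value in either comparison. Krt19 differed from the chromosome 11 median by 0.39 and -0.28. The part of the lower chromosome 15 values in the levels of Krt8, Krt18, Krt80 and Krt76 was not tested.

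Between Krt80 and Krt18, the keratins Krt76 and Krt8 were the only genes that passed the filter. The 5 tested genes on each side of the cluster in RefSeq's order were Fignl2, Acvr1b, Grasp, Nr4a1 and Atg101 on the side of Krt80, and Eif4b, Tns2, Spryd3, Igfbp6 and Csad on the side of Krt18. In MC38-LM3a these 10 genes had a median log2 fold change of -0.41 and a range from -0.87 (Csad) to 0.21 (Spryd3), with 6 called lower and 0 called higher by limma. In MC38-LM3b the median was -0.26 and the range -0.58 to 0.34, with 5 called lower and 1, Spryd3, called higher. Next to Krt18, the translation factor gene Eif4b fell by -0.57 (limma adjusted p = 8.686e-05) and -0.51 (limma adjusted p = 1.267e-04). The difference of Krt76 lay below that of each of these 10 genes in both comparisons. Krt79, a keratin near Krt76 that was chosen after its values were seen, had 0.49, 0.16 and 0.36 TPM in MC38-P and at most 0.06 TPM in each derivative library. It was too low to be tested.

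**Figure D3:**
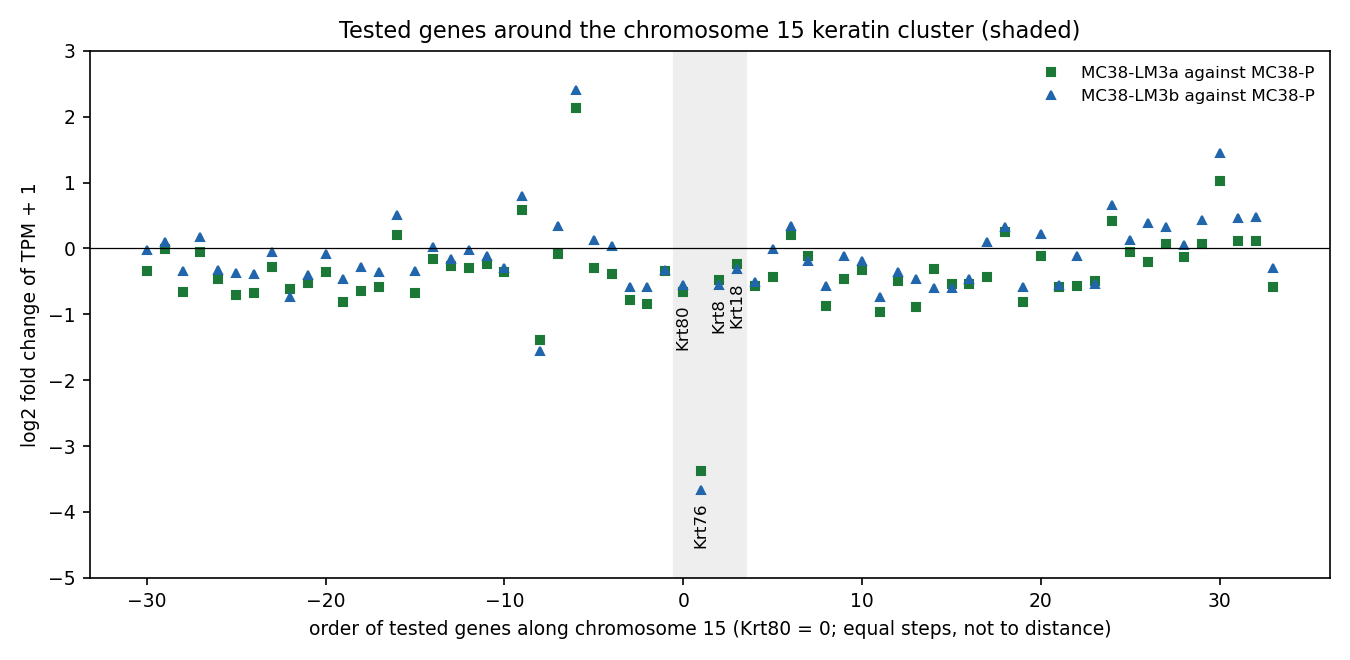
Log2 fold change of TPM + 1 from MC38-P (vertical axis) for tested chromosome 15 genes in their order along the chromosome (horizontal axis, equal steps counted from Krt80), with squares for MC38-LM3a, triangles for MC38-LM3b and the keratin cluster shaded. Krt80, Krt8 and Krt18 lie among their neighbours between -0.66 and -0.24, and Krt76 lies apart from them.

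Because filaments need both types, ratios between keratins were taken within each library, which removes its overall scale. Krt8 over Krt18 was 1.24, 1.26 and 1.23 in the MC38-P replicates, 1.03, 1.07 and 1.05 in MC38-LM3a and 1.02, 1.06 and 1.08 in MC38-LM3b. The parental libraries were all above those of the derivatives, which overlapped. The sum of all type II keratins over that of all type I keratins was 1.13 ± 0.0119 (SD, n = 3) for MC38-P, 0.88 ± 0.0124 for MC38-LM3a and 0.917 ± 0.0253 for MC38-LM3b. Type II transcripts thus outnumbered type I transcripts in MC38-P only. Without Krt8, the type II sum over the type I sum was 0.0411 ± 0.00323 for MC38-P, 0.0109 ± 0.0024 for MC38-LM3a and 0.012 ± 0.00136 for MC38-LM3b.

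Krt19 over Krt18 was 0.125 ± 0.00166 (SD, n = 3) for MC38-P, 0.194 ± 0.00229 for MC38-LM3a and 0.148 ± 0.00543 for MC38-LM3b, and the ranges of the lines did not overlap. Krt19 made up 11% ± 0.142 of the type I TPM for MC38-P, 16.1% ± 0.165 for MC38-LM3a and 12.7% ± 0.41 for MC38-LM3b. MC38-LM3a replicate 3, which had the lowest Krt8, Krt18 and Krt19 of its line, had ratios of 1.05 and 0.192, close to those of replicates 1 and 2. The summed level of all keratins was 2053, 2195 and 2366 TPM for MC38-P, 1793, 1827 and 1609 TPM for MC38-LM3a and 1609, 1646 and 1602 TPM for MC38-LM3b. The parental libraries had the highest sums. No test was made of sums and ratios, as their members were chosen with results known.

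**Figure D4:**
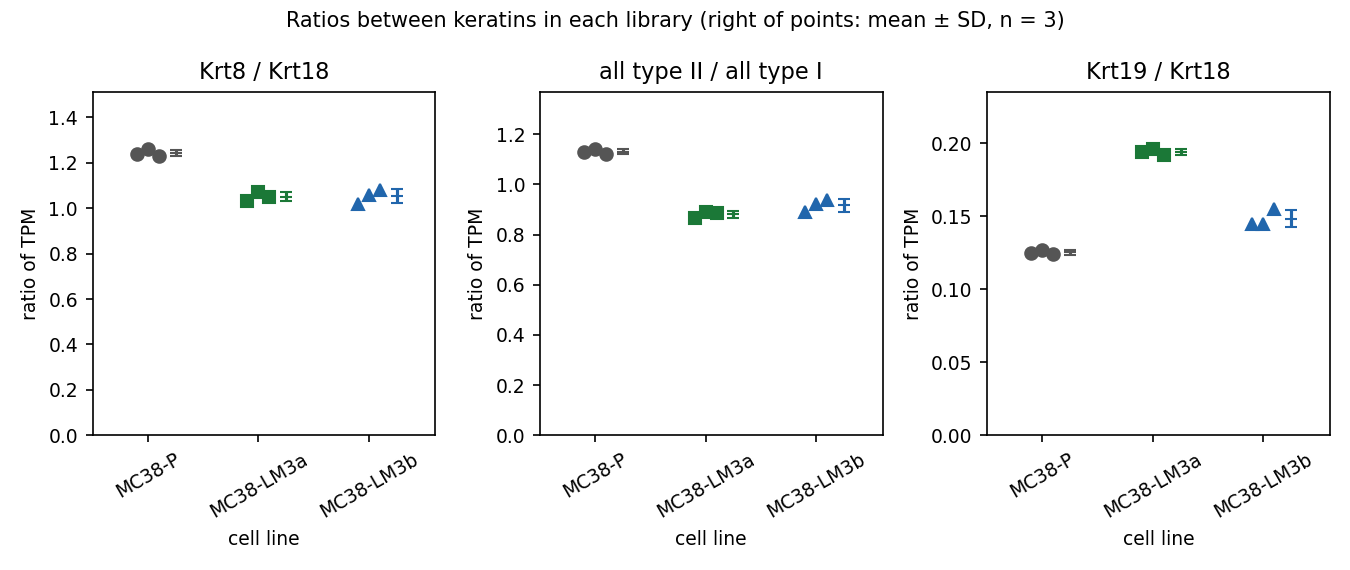
Ratio of TPM values (vertical axis) of Krt8 to Krt18, of all type II to all type I keratins and of Krt19 to Krt18 in each library, by cell line (horizontal axis), with the mean ± SD (n = 3) beside the points. Krt8 over Krt18 is 1.23 to 1.26 in MC38-P and 1.02 to 1.08 in the derivatives, and Krt19 over Krt18 is highest in MC38-LM3a.

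The derivatives were also compared with each other. None of the 7 tested members was called between MC38-LM3b and MC38-LM3a by limma (0 of 7), where 0.0532% of all genes were called, and 2 members had an unadjusted p-value under 0.05, as 38.1% of all genes did. These were Krt19, at -0.46 on the log2 scale (standard error 0.076, limma adjusted p = 0.119), and Krt10, at 0.45 (standard error 0.138, limma adjusted p = 0.119). For both genes the derivatives did not overlap, as was the case for 42.0% of all genes. Against the median of 0.21, Krt19 was at -0.67 and Krt10 at 0.24. Krt19 was called with offsets for GC content and length (-0.51, limma adjusted p = 0.0275) and without MC38-LM3a replicate 3 (-0.53, limma adjusted p = 0.00388). Without that library Krt10 was called as well (0.56, limma adjusted p = 0.00658). Krt76 had -0.28 (standard error 0.172, adjusted p = 0.218), Krt8 -0.07 (0.0677, 0.39), Krt18 -0.08 (0.0695, 0.383), Krt80 0.10 (0.145, 0.577) and Krt20 -0.22 (0.17, 0.312). These small values moved when 1 library was left out: Krt76 from -0.49 (without MC38-LM3b replicate 3) to -0.14 (without MC38-LM3b replicate 1), and Krt20 from -0.38 (without MC38-LM3b replicate 2) to -0.06 (without MC38-LM3b replicate 1). Krt8 ranged from -0.13 to -0.03, Krt18 from -0.14 to -0.05 and Krt80 from 0.25 to 0.01, with the ends without MC38-LM3a replicate 3 and without MC38-LM3a replicate 2. With centring on the median, Krt8 and Krt18 were each at -0.30, Krt76 at -0.50 and Krt20 at -0.44, and none was called. With quantile normalization, Krt8 and Krt18 were each at -0.03, Krt76 at -0.51 and Krt20 at -0.44, again with no call. Krt8 was at -0.18 with the GC and length offsets. Without the libraries numbered 3 of both MC38-P and MC38-LM3a, 5 of 7 were called by limma, Krt19 and Krt10 and also Krt8 (-0.13, adjusted p = 0.0138), Krt18 (-0.14, 0.00818) and Krt80 (0.25, 0.0104). The sign of Krt80 turned to -0.12 with centring on the median, to -0.12 with the GC and length correction and to -0.17 with quantile normalization.

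Of the 20 listed keratins outside these members, 18 had no value above 0.84 TPM. Krt13 and Krt27, both type I genes on chromosome 11, reached 1 TPM. Krt13 (NCBI Gene 16663), a keratin of stratified epithelia of the mouth and esophagus, had 8.95, 5.75 and 8.30 TPM for MC38-P, 5.46, 5.55 and 4.52 TPM for MC38-LM3a and 4.77, 5.79 and 4.61 TPM for MC38-LM3b. MC38-P replicate 2 was the lowest parental library and within the range of MC38-LM3b. Krt13 fell by -0.47 (standard error 0.159, limma adjusted p = 0.0476) in MC38-LM3a and by -0.50 (standard error 0.159, limma adjusted p = 0.0251) in MC38-LM3b, but not past the threshold in the model with the replicate block (0.107 and 0.0609). The call in MC38-LM3a was also lost with a pseudocount of 0.1 (0.0509), no filter (0.0856), quantile normalization (0.0738), centring on the median (0.069), the 2 lines alone (0.101) and when any library but MC38-P replicate 2 was left out, and that in MC38-LM3b without MC38-P replicate 1 (0.0786), MC38-P replicate 3 (0.0712), MC38-LM3b replicate 1 (0.082) or MC38-LM3b replicate 3 (0.0872).

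Krt27 (NCBI Gene 16675), a keratin of the inner root sheath of hair, had 1.19, 1.51 and 1.10 TPM in MC38-P and between 0.00 and 0.20 TPM in each derivative library. It passed the filter through MC38-P alone, so a lower level in the derivatives was built into its being tested. Its difference from MC38-P was -1.06 (standard error 0.126) in MC38-LM3a and -1.07 (standard error 0.126) in MC38-LM3b on the log2(TPM + 1) scale, given as a description. With a pseudocount of 0.1 it was -2.98 and -3.02.

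Genes whose values over the 9 libraries were most like those of Krt76, Krt8 and Krt18 were listed by Pearson correlation of log2(TPM + 1), as a description. The 9 libraries fall into 3 lines, so these correlations largely reflect differences between lines. For Krt76 they were Cyc1 (r = 0.9966), Tmem98 (0.9960), Cct5 (0.9955), Phlda2 (0.9940) and Tmem176b (0.9938), of which Cyc1 and Cct5 lie on chromosome 15. For Krt8 they were Myg1 (0.9922), Mrpl13 (0.9922), Rpl22l1 (0.9917), Txn2 (0.9914) and Znrd2 (0.9905), with Myg1, Mrpl13 and Txn2 on chromosome 15. For Krt18 they were Galk1 (0.9912), Mrps26 (0.9850), Timm50 (0.9805), Vps28 (0.9781) and Mrpl13 (0.9778). Among the members, Krt8 correlated with Krt18 at 0.96 and with Krt76 at 0.97, while Krt19 correlated with Krt8 at -0.13, with Krt18 at 0.04 and with Krt10 at -0.90.

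The other genes of the keratin network were taken from fixed lists. Over all tested genes 14.1% were called higher and 13.8% lower in MC38-LM3a, and 35.6% higher and 11.2% lower in MC38-LM3b, and nothing particular to a list is read from the counts that follow. Of 10 tested genes of desmosomes and adherens junctions, 1 was called higher and 2 lower in MC38-LM3a and 4 higher and 2 lower in MC38-LM3b, with medians of -0.12 and 0.03 beside 0.00 and 0.21 for all genes. Desmoplakin (Dsp), which ties keratin filaments to desmosomes, had 16.1 ± 3.02 TPM (SD, n = 3) for MC38-P, 23.7 ± 6.74 for MC38-LM3a and 30.1 ± 1.94 for MC38-LM3b, and it rose in MC38-LM3b (0.88, limma adjusted p = 0.00312) but did not pass in MC38-LM3a (0.52, 0.0574). Pkp2, a plakophilin of the desmosomal plaque, rose by 0.43 (limma adjusted p = 0.00369) and 0.57 (adjusted p = 5.284e-04). Epcam, an epithelial adhesion molecule, fell by -1.14 and -1.07 (adjusted p = 9.614e-05 and 1.043e-04), and Pkp3 fell in MC38-LM3b (-0.41, adjusted p = 0.0212) and had -0.36 in MC38-LM3a (0.053). Without the libraries numbered 3 of MC38-P and MC38-LM3a, Pkp3 was called lower in MC38-LM3a as well (-0.41, limma adjusted p = 0.0193).

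Among 6 tested hemidesmosome and cytolinker genes, 0 were called higher and 1 lower in MC38-LM3a by limma, and 4 higher and 0 lower in MC38-LM3b. Periplakin (Ppl) fell in MC38-LM3a (-0.65, limma adjusted p = 0.0171), and the large linkers Dst and Macf1 rose in MC38-LM3b (0.98 and 0.91, adjusted p = 0.0071 and 0.00565). Dst and Macf1 have long transcripts, and both were higher in MC38-LM3a replicate 3 (72.27 and 49.44 TPM) than in replicates 1 and 2 (37.02 to 37.76 and 28.70 to 29.90 TPM) and lowest in MC38-P replicate 3 (27.13 and 20.54 TPM), the libraries that stood apart along transcript length. Dsp, Pkp2, Ppl, Nes, Nefl, Tgm2, Ywhaz, Ywhah, Cyfip1, Elf3, Snai2, Klf6 and Cdsn likewise had their highest MC38-LM3a and lowest MC38-P level in these libraries. Without both libraries, an alternative chosen after seeing the data, the value in MC38-LM3a was -0.16 for Dst, -0.13 for Macf1, 0.15 for Dsp, -0.02 for Nes, 0.13 for Cyfip1 and 0.23 for Klf6. Of these Dst was then called lower (adjusted p = 0.0242 in limma), Cyfip1 (0.0108) and Klf6 (0.00802) were still called higher, and Dsp (0.11) and Nes (0.73) were not called. In MC38-LM3b it was 0.78 for Dst, 0.70 for Macf1, 0.73 for Dsp and 0.44 for Nes, each still called by limma. Ppl was then at -0.97 in MC38-LM3a and was called in MC38-LM3b too (-0.50, adjusted p = 5.459e-04 in limma). Among 9 tested intermediate filament genes other than keratins, 2 were higher and 1 lower in MC38-LM3a and 3 higher and 1 lower in MC38-LM3b. The neurofilament gene Nefl rose by 0.55 and 0.75 (limma adjusted p = 2.543e-04 and 2.514e-05), nestin (Nes) rose in MC38-LM3b (0.57, adjusted p = 0.00969), and syncoilin (Sync) fell by -0.69 and -0.62 (0.00781 and 0.00905). Of 15 keratin-binding and keratin-modifying genes, all tested, 2 were higher and 4 lower in MC38-LM3a and 3 higher and 3 lower in MC38-LM3b. The crosslinking enzyme gene Tgm2 fell by -0.68 and -0.51 (limma adjusted p = 2.805e-04 and 0.00113), as did Ywhaz, a 14-3-3 protein gene on chromosome 15 (-0.61 and -0.41, 0.00194 and 0.012), while Ywhah rose by 0.32 and 0.38 (0.00166 and 3.842e-04) and Cyfip1 by 0.32 and 0.53 (0.0328 and 0.00164).

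Of 15 tested epithelial transcription factors, 2 were higher and 4 lower in MC38-LM3a and 5 higher and 4 lower in MC38-LM3b. Elf3, an epithelial factor of the Ets family, had 16.6 ± 2.23 TPM (SD, n = 3) for MC38-P, 7.96 ± 1.01 for MC38-LM3a and 8.27 ± 0.312 for MC38-LM3b and fell by -0.97 and -0.91 (limma adjusted p = 2.838e-04 and 2.882e-04). Cdx2, the intestinal homeobox factor, was counted as lower in both, but it passed the filter through MC38-P alone (1.80 to 2.86 TPM, against 0.28 to 0.92 TPM in the derivatives). Snai2, a repressor of epithelial genes, rose by 0.87 and 1.15 (0.00146 and 1.805e-04), and Klf6 by 0.43 and 0.82 (0.0174 and 3.150e-04). Among 5 tested genes of cornifying epithelium, 0 were higher and 2 lower in MC38-LM3a, and 1 was higher and 1 lower in MC38-LM3b. Sprr1b fell by -0.98 and -0.89 (0.0155 and 0.0161), Cdsn fell in MC38-LM3a (-0.45, 0.0297), and Sprr1a rose in MC38-LM3b (0.97, 0.0215).

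The labels call the cells colon epithelial cells. Of 15 colon epithelium markers 10 were listed and 5 reached 1 TPM in a library. Krt19 was the most abundant of them, Epcam lay between 1.87 and 6.31 TPM, and E-cadherin (Cdh1), Cdx1, Vil1 and Muc2 were at most 0.13 TPM in every library, so several defining markers were near 0. Of the 4 tested, 2 (Krt19 and Krt20) were higher and 2 (Epcam and Cdx2) lower in MC38-LM3a, and 0 were higher and 2 lower in MC38-LM3b by limma, beside 14.1%, 13.8%, 35.6% and 11.2% of all genes. The direction of Krt20 and Cdx2 was favoured by the filter.

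Markers of other cells of the liver were summed in each library, as fewer cells of a type and less RNA per cell cannot be told apart in bulk samples. Hepatocyte markers, 8 of 10 listed, summed to 1.81 to 3.58 TPM for MC38-P, 2.06 to 2.53 for MC38-LM3a and 2.84 to 4.51 for MC38-LM3b, with albumin (Alb) at most 0.29 TPM. Cholangiocyte markers, 8 of 9 listed and Krt19 and Krt7 among them, summed to 358 to 385, 339 to 351 and 341 to 347 TPM, with Cftr at most 0.02 TPM. The sum was carried by Spp1 (176.84 to 269.15 TPM), which was lower in MC38-LM3a (-0.41, limma adjusted p = 0.0039), and by Krt19. Of the 4 tested, 1 was higher and 2 lower in MC38-LM3a and 0 higher and 1 lower in MC38-LM3b by limma. Spp1, like Col1a1, Col3a1 and Pdgfrb below, had its lowest MC38-P and highest MC38-LM3a level in the libraries numbered 3. Without these 2 libraries, Spp1 was at -0.56 in MC38-LM3a and was called lower in MC38-LM3b too (-0.20, limma adjusted p = 7.229e-04). Of macrophage markers, 4 of 10 listed, Cd68 alone reached 1 TPM (28.8 ± 0.936, 36.6 ± 3.77 and 43.4 ± 3.24 TPM, SD, n = 3) and was called higher in both derivatives by limma (0.33 and 0.57, adjusted p = 0.022 and 7.948e-04), while Ptprc was at most 0.09 TPM. Endothelial markers, 6 of 9 listed, summed to 15.3 to 20.2, 14.4 to 16.6 and 14.8 to 16.5 TPM, of which Egfl7 gave 12.91 to 19.02 TPM, while Pecam1 was at most 0.25 and Tek at most 0.05 TPM. Fibroblast and stellate markers, 8 of 10 listed, summed to 136 to 174 TPM for MC38-P, 54.7 to 73.4 for MC38-LM3a and 66.4 to 73.5 for MC38-LM3b. Of its 4 tested genes, 0 were higher and 2 lower in MC38-LM3a and 1 higher and 2 lower in MC38-LM3b by limma, beside the same shares of all genes. The sum was carried by the collagen genes Col3a1 (122.84 to 154.16 TPM in MC38-P and 48.58 to 64.81 TPM in the derivatives) and Col1a1, while Col1a2 was at most 0.08 TPM and Dcn at most 0.13 TPM in every library. Pdgfrb went the other way, with 1.54 ± 0.338 TPM (SD, n = 3) for MC38-P, 2.13 ± 0.389 for MC38-LM3a and 3.66 ± 0.163 for MC38-LM3b. It rose in MC38-LM3b (0.88, limma adjusted p = 6.946e-04) and did not pass in MC38-LM3a (0.30, 0.135). Without the libraries numbered 3 of MC38-P and MC38-LM3a, its value in MC38-LM3b was 0.77. The part of these genes in the keratin levels was not tested.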

How the data were processed

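Bulk RNA of 3 lines was analysed, with 3 libraries each. The authors deposited TPM, rounded to 2 decimals; per the labels, poly(A) RNA was used, and HISAT and GRCm39 are named in the submitters' processing notes, while the quantification tool is not given in the sources used here. The files hold no counts, so no count model was used; limma 3.58.1 in R 4.3.3 was used on log2(TPM + 1), for 11287 genes that reached 1 TPM in 3 or more libraries. All 9 libraries entered a single model (group means, variance trend), and p-values were adjusted by Benjamini-Hochberg over these genes. A gene was called at an adjusted p-value under 0.05, and a differentially expressed gene (DEG) also had an absolute log2 fold change above 1.

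The members and lists were chosen with earlier results of these data known. All members were named, with every other keratin at 1 TPM in a library, 2 called genes per list and direction, 5 tested genes on each side of the cluster, and the 5 genes most correlated with Krt76, Krt8 and Krt18. For Krt76 the comparisons with MC38-P were described and not tested. Chromosomes, gene order and promoters came from RefSeq on GRCm38.p6, so no gene coordinates of the files' build are given. GC content and length of the longest transcript came from GENCODE M21 for 98.3% of the tested genes, for loess offsets of span 0.3. On simulated data, 93 of 100 genes simulated at log2 1 were recovered in MC38-LM3a against MC38-P, with 12 false calls. In MC38-LM3b against MC38-P, 193 of 200 were recovered, with 24 false calls. These counts describe the simulated data only. Whether they hold for libraries whose genes share a trend along transcript length, as some libraries here did, was not tested. Whether the replicate numbers pair the libraries could not be told, as described under the dependence on the processing. Alternatives were other pseudocounts, filters, scalings, libraries in the model and variance priors. As TPM keeps no read depth, no counting error is given. Proteins were not analysed here.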

Additional observations from a re-analysis of the deposited data

Results flagged for a closer look

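Krt19 stood out because the derivatives lay on opposite sides of the MC38-P mean, although the difference of MC38-LM3b from MC38-P did not pass the test (-0.08, adjusted p = 0.413 in limma). All 3 MC38-LM3a libraries (135.74 to 156.89 TPM) lay above the MC38-P mean of 114 TPM, and all 3 MC38-LM3b libraries (106.54 to 109.25 TPM) lay below it, although within the range of MC38-P. The difference of MC38-LM3b from MC38-LM3a was -0.46 on the log2 scale (limma adjusted p = 0.119). Over its alternatives this value ran from -0.69 to -0.43, and it was past the threshold in 3 of them, those without MC38-LM3a replicate 3, alone or with MC38-P replicate 3, and with the GC and length offsets. The part of the trend along transcript length in MC38-LM3a replicate 3 was not tested.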

How the results depend on the processing

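Of the results for single keratins under the alternatives, 462 kept their direction and, where a test was made, their side of the threshold. These include values of Krt76 against MC38-P, which were not tested and had no threshold to keep. Of the others, 32 lost and 14 gained a call, and 4 values of Krt76, under the smaller pseudocounts, moved by more than the spread between replicates (-3.89 and -4.35 with 0.1, -3.64 and -4.00 with 0.5). With a pseudocount of 0.1 the low keratins moved by over 1.5 times as well, Krt27 to -2.98 and -3.02 and Krt20 to 0.99 and 0.60 against MC38-P, and Krt76 to -0.46 and Krt20 to -0.39 between the derivatives. In MC38-LM3a against MC38-P, 5 of 6 members were called, Krt20 included, 3 with centring on the median and 3 to 6 when 1 library was left out, with 3 without MC38-P replicate 2. In MC38-LM3b against MC38-P 3 of 6 were called, and 3 to 4 when 1 library was left out, where the added member was Krt20, whose direction the filter favoured. Between the derivatives 0 of 7 were called, 1 with the GC and length offsets, 0 to 2 when 1 library was left out, with 2 without MC38-LM3a replicate 3, and 5 without the libraries numbered 3 of both MC38-P and MC38-LM3a, an alternative chosen after seeing the data. Signs turned for values near 0: Krt10 in MC38-LM3b against MC38-P (-0.08 with quantile normalization and -0.09 with centring), and, between the derivatives, Krt80 (-0.17, -0.12 and -0.12 with quantile normalization, centring and offsets), Krt13 (-0.11 to 0.02) and Krt27 (-0.07 to 0.06) with 1 library left out. The cause was not tested.

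The replicate numbers were shared between lines. Between MC38-P and MC38-LM3a, the deviations of same-numbered libraries correlated at -0.336, -0.165 and -0.662. The last value joins the 2 libraries that stood apart along transcript length. With MC38-LM3b, same-numbered libraries were at 0.0353 to 0.0748 and libraries of other numbers at -0.0627 to 0.00728. Whether the numbers pair the libraries cannot be told from these values, as the trend along length dominates some of them. With the replicate block, 4 members were called in MC38-LM3a, 3 in MC38-LM3b and 0 between the derivatives. As depth is unknown, values near 0 TPM, such as those of Krt7 and Krt14, are given without a counting error.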
